A study of Mus musculus with 4 samples.

Results

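Macrophages dominated by MHC class II were taken from the 2 single-cell RNA-seq libraries of a mouse study of heterotopic ossification, the formation of bone in soft tissue after injury. A barcode counted as one of these cells where it had at least 200 genes, at least 1000 unique molecular identifiers (UMIs, 1 per captured RNA molecule) and at most 20% mitochondrial UMIs, at least 5 UMIs of the complement genes C1qa, C1qb and C1qc together, under 1% of its UMIs from Col1a1 and Col1a2, and more UMIs of H2-Aa, H2-Ab1 and H2-Eb1 together than of Mrc1, Pf4 and Ccl8 together. This rule gave 129 class II macrophages among 2060 kept cells, with 86 of 1271 cells in the library of replicates 1 and 2 and 43 of 789 cells in the library of replicate 3. The other 142 C1q-high macrophages, in which Mrc1, Pf4 and Ccl8 matched or exceeded class II, are called Mrc1-side macrophages here (80 and 62 cells). A second reference, 106 C1q-low class II cells (71 and 35 cells), had fewer than 5 C1q UMIs, at least 20 UMIs of the 3 class II genes and at least 0.3% of their UMIs from them.

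Both libraries held unsorted cells of the tenotomy site 7 days after burn/tenotomy, an injury that combines a dorsal burn with a cut Achilles tendon, in mice labelled Hoxa11CreER;ROSA-LSL-TdTomato;Hif1a fl/fl that had received 75 mg/kg tamoxifen daily for 5 days before injury. The Hoxa11 driver acts in mesenchymal cells of the zeugopod, the middle segment of the limb, so macrophages are not the cells in which the floxed allele is meant to be removed. One library pooled replicates 1 and 2 (called the pooled library below) and the other held replicate 3. The labels do not write whether the Cre was present. Both libraries carry the same genotype label and neither is labelled as littermates without Cre, so genotypes were not compared. Visium spatial sections A1 and B1 came from wild-type C57BL/6 mice aged 10 weeks at day 7 and carried no floxed allele. The labels do not say that the replicates were separate mice. The tests take out differences between the libraries, so the p-values below rest on how far class differences varied between these 2 libraries. They do not measure a spread between mice.

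MHC class II molecules carry peptides from engulfed material to the cell surface, where CD4 T cells read them. Their transcription depends on the coactivator CIITA, the invariant chain Cd74 guides them through the cell, and H2-DM exchanges the invariant chain remnant for peptide. Macrophages in injured tissue come from circulating monocytes and from cells already resident there, and class II, Mrc1 and C1q are among the genes by which their states are usually told apart.

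The cells were chosen by their class II, Mrc1, Pf4, Ccl8, C1q and collagen UMIs, and these values are given as a description with no test. In class II macrophages H2-Aa stood at 6323 and 7733 CPM (the UMIs of a gene summed over the cells of a class and scaled to the summed UMIs of those cells, as counts per 1000000) in the pooled and replicate 3 libraries, against 513 and 131 CPM in Mrc1-side macrophages and 8792 and 9364 CPM in C1q-low class II cells. Per cell, class II macrophages had a median of 282.5 and 311 UMIs of the 3 class II genes, against 1 and 0 in Mrc1-side macrophages. Class II was therefore close to absent from most cells on the Mrc1 side, and the scatter of class II against Mrc1, Pf4 and Ccl8 UMIs shows the cells lying mostly near one axis or the other. Mrc1 itself was not absent from the class II macrophages: it stood at 425 and 894 CPM, against 1969 and 1510 CPM in Mrc1-side macrophages. The C1q genes were of similar order on both sides, with C1qa at 2533 and 2103 CPM in class II macrophages, 3135 and 2988 CPM in Mrc1-side macrophages, and 19.9 and 16.8 CPM in C1q-low class II cells.

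**Figure D1:**
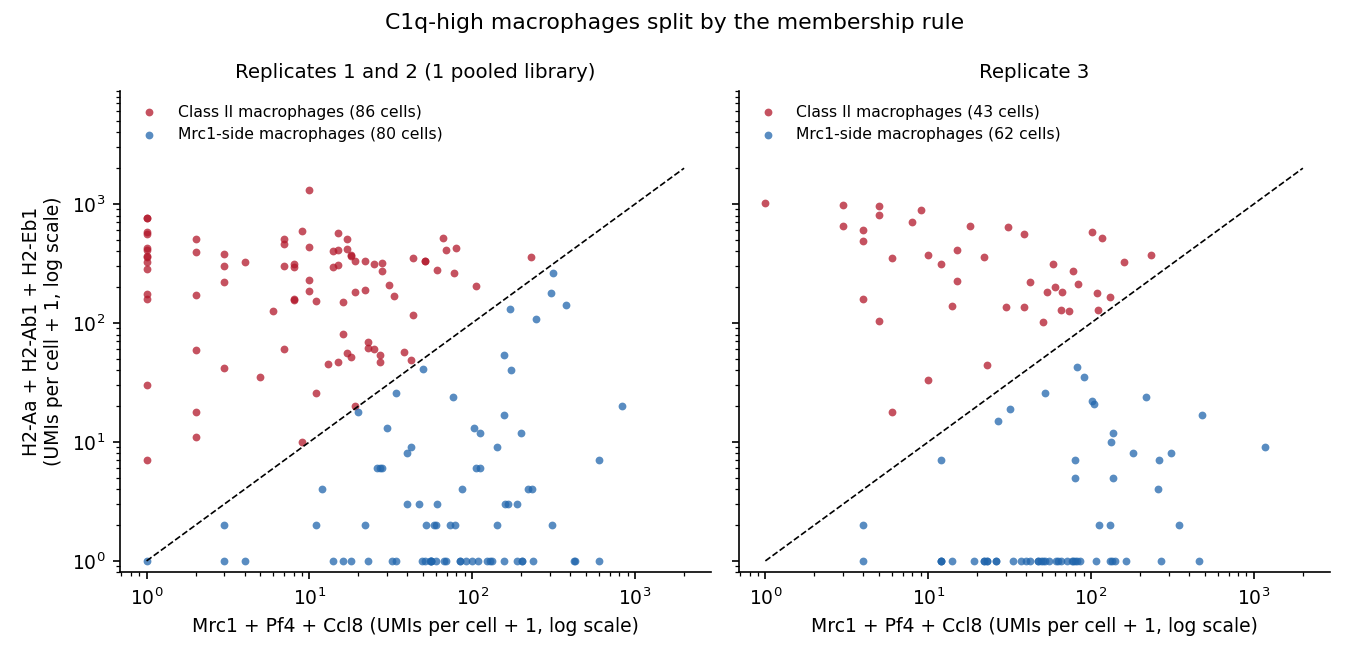
UMIs of H2-Aa, H2-Ab1 and H2-Eb1 (vertical axis) against UMIs of Mrc1, Pf4 and Ccl8 (horizontal axis) in each C1q-high macrophage, as UMIs plus 1 on log scales, with 1 panel per library and a dashed line of equality. Class II macrophages lie above the line and Mrc1-side macrophages on or below it, and 78 of 129 class II macrophages drew at least 90% of the 2 sums from class II.

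Few cells lay at the edges of the rule. In 78 of the 129 class II macrophages class II made up a fraction of at least 0.9 of the 2 sums, and in 5 it made up 0.5 to 0.6, while 5 Mrc1-side macrophages lay at 0.4 to 0.5 and 112 of 142 lay under 0.1. At the C1q limit, 8 class II macrophages had 5 to 7 C1q UMIs and 9 C1q-low class II cells had 3 or 4. No Mrc1, Pf4 or Ccl8 UMI was found in 15 class II macrophages. Class II macrophages made up 51.8% of C1q-high macrophages in the pooled library (95% Wilson interval 44.3 to 59.3%) and 41.0% in replicate 3 (32.0 to 50.5%), and these intervals, which cover counting error only, overlapped.

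Median depth was 13448.5 UMIs and 3165.5 genes per class II macrophage in the pooled library and 16198 UMIs and 3547 genes in replicate 3, against 11556.5 and 14456 UMIs in Mrc1-side macrophages and 11113 and 13437 UMIs in C1q-low class II cells. No barcode of a class II macrophage was shared between the libraries. One barcode in the pooled library held 188190 UMIs, where the next deepest class II macrophage had 40849, and 11641 of its UMIs came from the keratinocyte list. It had 5 C1q UMIs and supplied 14.5% of all UMIs of the class in that library. That barcode and 3 further cells, 2 cells per library in all, each had at least 10 UMIs of Cd207 and Epcam together, genes that Langerhans cells of the epidermis express. These 4 cells held every Epcam UMI of the class (75 and 56 UMIs). Calls lost without them are given with their fold changes beside the gene or in the closing paragraphs.

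The identity of the cells was checked on genes that the rule did not use. Cd14, the monocyte and macrophage co-receptor for lipopolysaccharide, stood at 1350 and 1441 CPM in class II macrophages, against 727 and 590 CPM in Mrc1-side macrophages and 532 and 727 CPM in C1q-low class II cells, with no overlap between the class II macrophages and either reference. Csf1r, the receptor for the macrophage growth factor CSF1, stood at 634 and 723 CPM in class II macrophages, against 863 and 837 CPM in Mrc1-side macrophages and 264 and 378 CPM in C1q-low class II cells. Adgre1, which encodes F4/80, stood at 239 and 296 CPM, against 509 and 489 CPM on the Mrc1 side and 56.1 and 71.5 CPM in the C1q-low cells. The dendritic cell genes Flt3 and Ccr7 were near the floor in class II macrophages, at 8.46 and 4.15 CPM and at 13.9 and 6.91 CPM, against 112 and 48.3 CPM and 333 and 294 CPM in C1q-low class II cells. Other genes of the dendritic cell list did not pass the test between these classes: Itgax stood at 56.9 and 58.1 CPM in class II macrophages, against 54.9 and 86.2 CPM in C1q-low class II cells, and the lectin Mgl2 at 64.6 and 178 CPM, against 64.3 and 195 CPM. Judged by Cd14, Csf1r and Adgre1, the macrophage name holds for the class as a whole. C1q is no part of this check because the rule used it. The exception is the 4 cells above, which carry few C1q UMIs (5 to 27) together with Langerhans cell genes. Hif1a, the floxed gene, stood at 213 and 258 CPM in class II macrophages, 272 and 251 CPM in Mrc1-side macrophages and 143 and 193 CPM in C1q-low class II cells, a log2 fold change of -0.10 ± 0.19 (SE) against the Mrc1 side (edgeR adjusted p = 0.84), and a 3' tag does not check the deletion.

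Summed UMI counts of the 3 classes in the 2 libraries were compared with edgeR's quasi-likelihood test with library as a block, without the 11 genes of the rule, and p-values were adjusted over all 7724 genes tested by the Benjamini-Hochberg method. Any gene that varies with class II, Mrc1, Pf4 or Ccl8 among C1q-high macrophages is separated by the split itself, so the tests describe how cells split in this way differed in both libraries and give no independent support for the split. Against Mrc1-side macrophages, 540 genes were called (6.99% of those tested), of which 255 were higher (3.30%) and 285 lower (3.69%) in class II macrophages. Against C1q-low class II cells, 565 genes were called (7.31%), with 328 higher (4.25%) and 237 lower (3.07%). The comparisons share the class II macrophages, and over all genes tested the log2 fold changes had a median of -0.01 in the first and 0.01 in the second.

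Several genes that load and traffic class II were higher in class II macrophages than on the Mrc1 side, and several were lower than in C1q-low class II cells. Of 15 list members tested outside the rule, 6 were higher and 3 lower against the Mrc1 side, with a median log2 fold change of 1.30. H2-Oa had no UMI on the Mrc1 side, and with it set at its bound the median was 0.14. Against C1q-low class II cells 2 were higher and 7 lower, with a median of -0.61. Cd74, the invariant chain, stood at 11379 and 14212 CPM in class II macrophages, against 1244 and 513 CPM in Mrc1-side macrophages and 16164 and 18437 CPM in C1q-low class II cells. It was higher than on the Mrc1 side by 3.99 ± 0.51 on the log2 scale (edgeR adjusted p = 0.033), while the difference of -0.49 ± 0.45 from the C1q-low cells did not pass the test (adjusted p = 0.65).

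The peptide exchange factor H2-DM followed the same order. H2-DMb1 stood at 331 and 401 CPM in class II macrophages, against 47.3 and 36.7 CPM in Mrc1-side macrophages and 547 and 672 CPM in C1q-low class II cells. Its log2 fold changes were 3.17 ± 0.22 against the Mrc1 side and -0.79 ± 0.19 against the C1q-low cells (edgeR adjusted p = 1.1e-06 and 0.02). H2-DMa, its partner chain, stood at 410 and 464 CPM, against 95.7 and 59.4 CPM on the Mrc1 side and 679 and 818 CPM in C1q-low cells, and passed the test in both directions. Ciita, the coactivator, was counted at 29.2 and 37.3 CPM in class II macrophages, against 3.09 and 2.16 CPM in Mrc1-side macrophages and 77.1 and 60.9 CPM in C1q-low class II cells. It was 3.63 ± 0.48 higher on the log2 scale than on the Mrc1 side (edgeR adjusted p = 2.7e-04). Ifi30, a reductase that opens disulfide bonds of antigens in lysosomes, was also higher than on the Mrc1 side, at 954 and 804 CPM against 414 and 333 CPM.

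**Figure D2:**
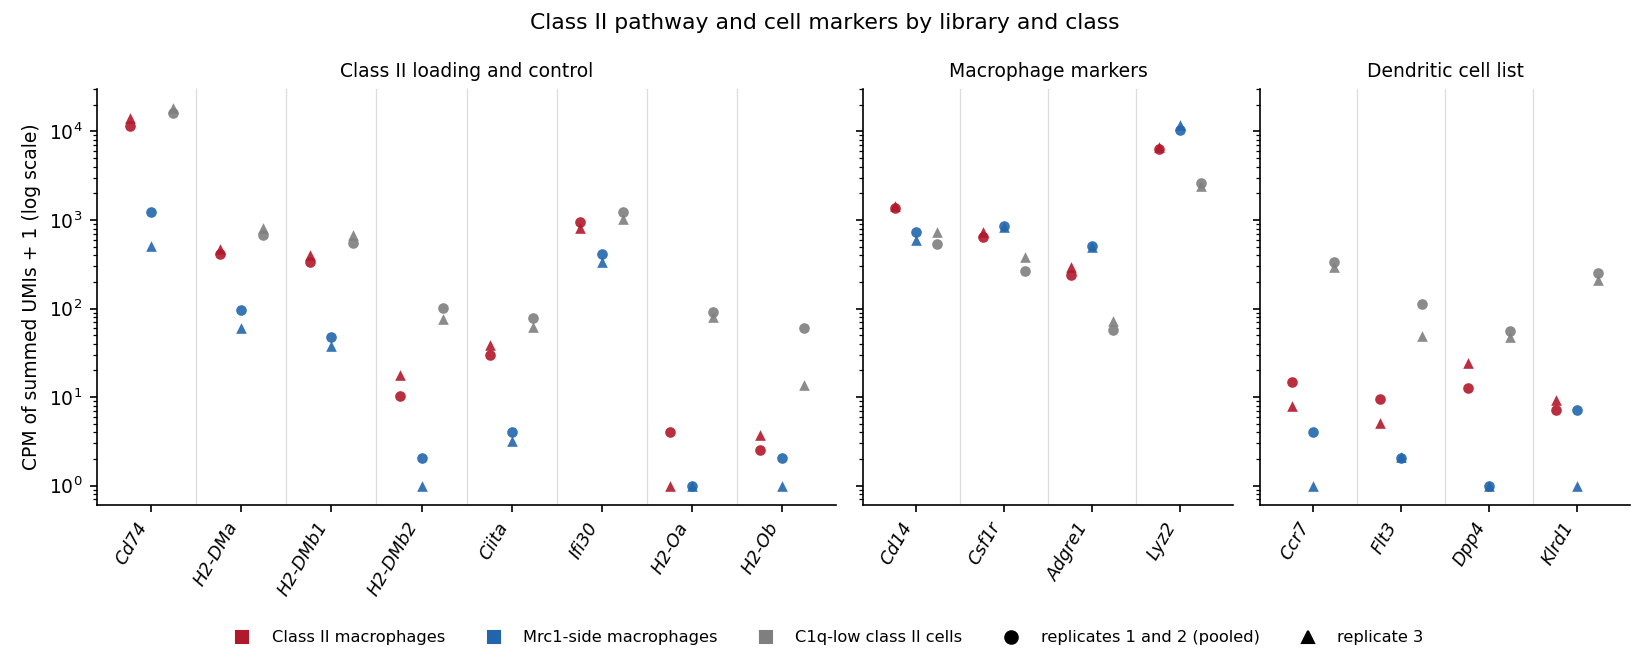
Levels in CPM plus 1 on a log scale of class II loading genes, macrophage markers and dendritic cell markers, with 1 point per library for class II macrophages, Mrc1-side macrophages and C1q-low class II cells. Class II loading genes stood highest in C1q-low class II cells, Cd14 stood highest in class II macrophages, and Ccr7, Flt3 and Klrd1 stood far above the others in C1q-low class II cells.

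Among the members of the presentation list that were lower than in C1q-low class II cells were both chains of H2-DO, a brake on H2-DM that B cells and some dendritic cells express. H2-Oa was counted at 3.08 and 0 CPM in class II macrophages, from 2 cells, against 91.1 and 79.9 CPM in C1q-low class II cells, a log2 fold change of -5.45 ± 0.56 (edgeR adjusted p = 5.9e-05). H2-Ob was counted at 1.54 and 2.76 CPM, against 59.6 and 12.6 CPM. The C1q-low cells also carried B cell transcripts: Igkc, an immunoglobulin light chain, stood at 0.77 and 1.38 CPM in class II macrophages and at 383 and 44.1 CPM in C1q-low class II cells. Without the C1q-low cells that had at least 3 B cell UMIs, 56 and 33 of them were left. In that fit 16 of the named genes lost their call against the C1q-low cells. Lysosomal proteases of the same list ran in the other direction. Ctsl stood at 389 and 605 CPM in class II macrophages, against 1227 and 2180 CPM in Mrc1-side macrophages and 220 and 303 CPM in C1q-low class II cells. Lgmn stood at 1142 and 1037 CPM, against 2878 and 2051 CPM on the Mrc1 side and 373 and 389 CPM in the C1q-low cells. March1, a ligase that removes class II from the surface, stood at 22.3 and 16.6 CPM against 60.7 and 41.1 CPM on the Mrc1 side, a log2 fold change of -1.34 (edgeR adjusted p = 0.026). Ctss, the protease best known for cutting the invariant chain, did not pass either test, at 1964 and 1426 CPM in class II macrophages, 2310 and 1834 CPM in Mrc1-side macrophages and 1289 and 1395 CPM in C1q-low class II cells.

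The promoters of class II genes are shown because these genes are read together through short shared boxes upstream of their start sites, the Y box bound by NF-Y and the X box bound by RFX. RefSeq start sites on GRCm38.p6 were matched for 8 class II genes with 9 promoters (H2-Ab1, Cd74 and Ciita were not matched), and the letters CTGATTGG of the Y box and the consensus of the X box were searched on both strands from 250 bases before to 50 after the start. The Y box letters were present in 4 of the 9 class II promoters (44.4%) and in 1346 of 32851 promoters of all genes (4.1%), and the X box letters in 1 (11.1%) and in 20 (0.0609%). A match is a description of letters and not a bound site. The 150 bases before the start are given 5′ to 3′ on the gene's strand with the matched letters in capitals, for H2-Aa (chr17:34287824-34287973, minus strand) and H2-Eb1 (chr17:34305717-34305866, plus strand) of the rule, for H2-DMb1 (chr17:34153041-34153190, plus strand), which was high in class II macrophages, and for H2-Oa (chr17:34092229-34092378, plus strand), which was nearly absent from them and whose promoter holds the same Y box letters.
H2-Aa: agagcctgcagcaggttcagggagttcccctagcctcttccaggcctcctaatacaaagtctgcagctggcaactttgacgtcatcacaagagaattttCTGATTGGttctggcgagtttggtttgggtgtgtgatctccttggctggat
H2-Eb1: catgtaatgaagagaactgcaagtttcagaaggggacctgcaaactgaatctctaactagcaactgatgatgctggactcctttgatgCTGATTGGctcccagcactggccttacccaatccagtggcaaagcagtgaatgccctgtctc
H2-DMb1: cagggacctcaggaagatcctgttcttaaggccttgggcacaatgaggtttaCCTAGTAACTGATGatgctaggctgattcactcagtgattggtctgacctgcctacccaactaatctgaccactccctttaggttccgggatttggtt
H2-Oa: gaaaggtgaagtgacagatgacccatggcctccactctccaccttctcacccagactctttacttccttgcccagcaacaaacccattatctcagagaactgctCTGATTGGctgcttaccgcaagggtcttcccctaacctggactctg

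Ligands that steer T cells were in part higher in class II macrophages than on the Mrc1 side. Of 11 co-stimulation and co-inhibition genes tested, 4 were higher and 0 lower against the Mrc1 side, with a median log2 fold change of 0.60, and DESeq2 called 1. Cd80, a ligand of CD28 and CTLA-4, stood at 44.6 and 49.8 CPM in class II macrophages, against 16.5 and 24.9 CPM in Mrc1-side macrophages and 79.4 and 116 CPM in C1q-low class II cells. Its log2 fold changes were 1.28 against the Mrc1 side and -1.05 against the C1q-low cells (edgeR adjusted p = 0.015 and 0.02). Cd40, the receptor through which T cells license presenting cells, stood at 51.5 and 33.2 CPM against 23.7 and 15.1 CPM on the Mrc1 side. Cd274, the inhibitory ligand PD-L1, stood at 54.6 and 24.9 CPM against 16.5 and 17.3 CPM. Cd86, the other CD28 ligand, did not differ past the threshold, at 225 and 245 CPM in class II macrophages and 206 and 158 CPM in Mrc1-side macrophages (edgeR adjusted p = 0.2).

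Class I presentation and interferon genes showed smaller counts. Of 16 class I genes, 3 were higher against the Mrc1 side, all parts of the immunoproteasome or its activator. Psmb8 stood at 316 and 200 CPM in class II macrophages, against 161 and 117 CPM in Mrc1-side macrophages and 765 and 319 CPM in C1q-low class II cells. The class I light chain B2m passed neither test. Against C1q-low class II cells 6 of the 16 were lower and 0 higher. Of 20 interferon response genes, Cxcl9, Gbp2 and Socs1 were called higher against the Mrc1 side and DESeq2 called 0. Cxcl9, a chemokine for activated T cells, rested on the pooled library alone, with 270 CPM from 11 class II macrophages there and 0 CPM in replicate 3, against 19.5 and 0 CPM in Mrc1-side macrophages. Gbp2, a guanylate-binding protein, was counted at 89.2 and 19.3 CPM against 24.7 and 6.48 CPM on the Mrc1 side.

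Some genes of monocytes and recent recruits were higher in class II macrophages than on the Mrc1 side, and some were lower than in C1q-low class II cells. Of 16 tested, 5 were higher and 0 lower against the Mrc1 side (median log2 fold change 1.55), while 1 was higher and 6 were lower against the C1q-low cells (median -0.85). S100a4, a calcium-binding protein of migrating cells, stood at 1381 and 2072 CPM in class II macrophages, against 537 and 557 CPM in Mrc1-side macrophages and 3458 and 3533 CPM in C1q-low class II cells. Its log2 fold changes were 1.70 ± 0.19 against the Mrc1 side and -1.09 against the C1q-low cells (edgeR adjusted p = 6.1e-05 and 0.0015). Ms4a4c, a gene of inflammatory monocytes, stood at 122 and 59.4 CPM, against 26.7 and 7.57 CPM on the Mrc1 side and 252 and 193 CPM in the C1q-low cells. Vcan, a proteoglycan of monocytes, was counted at 20 and 49.8 CPM, against 6.17 and 6.48 CPM on the Mrc1 side.

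Ccr2, the receptor that draws monocytes out of bone marrow, overlapped in level between class II macrophages and C1q-low class II cells and did not pass the test against the Mrc1 side. It stood at 284 and 408 CPM in class II macrophages, 110 and 41.1 CPM in Mrc1-side macrophages and 235 and 336 CPM in C1q-low class II cells, with a log2 fold change of 2.25 ± 0.62 against the Mrc1 side (edgeR adjusted p = 0.2, DESeq2 adjusted p = 0.036). After thinning every cell to 5000 UMIs, which kept 79 and 40 class II macrophages, 66 and 52 Mrc1-side macrophages and 369 and 288 mesenchymal cells, a Ccr2 UMI was found in 58.2 and 55.0% of class II macrophages and in 19.7 and 7.69% of Mrc1-side macrophages, and in 0 and 0.347% of collagen-rich mesenchymal cells, which should lack the gene. Without thinning these shares were 68.6 and 72.1%, 21.2 and 12.9%, and 0.257 and 1.67%, at median depths of 13448.5 and 16198 UMIs in class II macrophages and 43354 and 45828 UMIs in mesenchymal cells.

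Several genes of tissue-resident macrophages ran the other way. Of 22 tested, 0 were higher and 10 lower in class II macrophages than on the Mrc1 side (median log2 fold change -1.74), and 8 were higher and 3 lower than in C1q-low class II cells (median 2.11, and 1.77 with the 3 genes that had no UMI in C1q-low cells at their bounds). The other 12 were not called against the Mrc1 side, among them Cd163, Folr2, Lyve1 and Timd4. Selenop, a secreted selenium carrier, stood at 768 and 1147 CPM in class II macrophages, against 3918 and 3155 CPM in Mrc1-side macrophages and 131 and 191 CPM in C1q-low class II cells. Its log2 fold changes were -1.86 against the Mrc1 side and 2.52 against the C1q-low cells (edgeR adjusted p = 1.2e-04 and 1.5e-05). Gas6, a bridge between dying cells and their receptors, stood at 58.5 and 131 CPM, against 522 and 499 CPM on the Mrc1 side and 9.35 and 23.1 CPM in the C1q-low cells. Stab1, a scavenger receptor, stood at 59.2 and 130 CPM, against 421 and 447 CPM on the Mrc1 side and 3.51 and 12.6 CPM in the C1q-low cells. For each of these 3 genes the class II macrophages lay between the references in both libraries without overlap. Maf, a transcription factor of mature macrophages, followed the same order, at 193 and 264 CPM in class II macrophages, 723 and 550 CPM in Mrc1-side macrophages and 40.9 and 48.3 CPM in C1q-low class II cells. Igf1, a growth factor for muscle and tendon, stood at 71.6 and 131 CPM, against 317 and 389 CPM on the Mrc1 side and 5.84 and 16.8 CPM in the C1q-low cells. The 3 list genes lower than in C1q-low class II cells were Cd209d, Timd4 and Txnip. Cd209d, a lectin, had 1 UMI in all class II macrophages (0 and 1.38 CPM), against 25.7 and 54.0 CPM on the Mrc1 side and 8.18 and 48.3 CPM in the C1q-low cells. Txnip, an inhibitor of thioredoxin, stood at 60 and 48.4 CPM, against 211 and 175 CPM on the Mrc1 side and 113 and 141 CPM in the C1q-low cells, so that both genes were lower than in either reference. The call of Gas6 against the C1q-low cells was lost without the 4 Cd207 and Epcam cells (adjusted p = 0.078 in edgeR), at a log2 fold change of 2.47 against 2.51 with them.

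**Figure D3:**
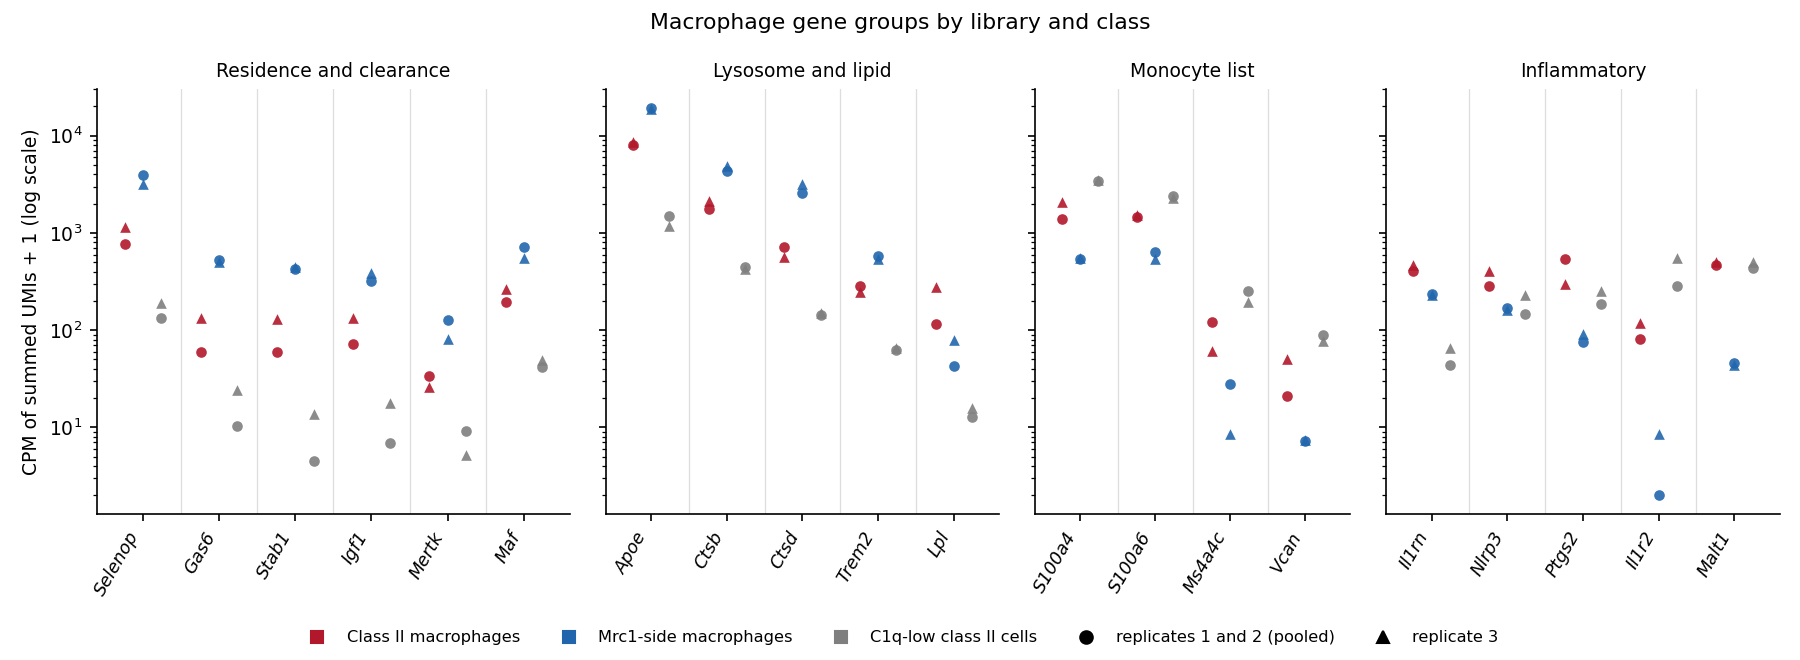
Levels in CPM plus 1 on a log scale of tissue-resident, lipid and lysosome, monocyte and inflammatory genes, with 1 point per library for class II macrophages, Mrc1-side macrophages and C1q-low class II cells. Selenop, Gas6, Stab1, Apoe and Ctsd in class II macrophages lay between the Mrc1-side macrophages above and the C1q-low class II cells below, and S100a4 and Ms4a4c lay between them in the opposite order.

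Lipid handling and lysosomal genes separated the classes in the same graded way. Of 20 tested, 2 were higher and 10 lower in class II macrophages than on the Mrc1 side (median log2 fold change -1.03), and 12 were higher and 0 lower than in C1q-low class II cells (median 1.61). Apoe, the lipid carrier apolipoprotein E, stood at 8106 and 8700 CPM in class II macrophages, against 19118 and 18773 CPM in Mrc1-side macrophages and 1477 and 1175 CPM in C1q-low class II cells. The log2 fold changes were -1.11 ± 0.17 against the Mrc1 side and 2.62 against the C1q-low cells (edgeR adjusted p = 9.9e-04 and 1.3e-06). The lysosomal protease Ctsd stood at 716 and 568 CPM, against 2576 and 3182 CPM on the Mrc1 side and 141 and 149 CPM in the C1q-low cells. Trem2, a lipid receptor of macrophages in injured tissue, stood at 285 and 247 CPM, against 583 and 535 CPM on the Mrc1 side and 61.9 and 65.2 CPM in the C1q-low cells. Gpnmb, a marker of lipid-laden macrophages, was counted in 8 and 1 class II macrophages, at 13.9 and 4.15 CPM against 169 and 275 CPM on the Mrc1 side.

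Lpl went against its list. This lipoprotein lipase stood at 114 and 276 CPM in class II macrophages, against 42.2 and 78.9 CPM in Mrc1-side macrophages and 11.7 and 14.7 CPM in C1q-low class II cells. It was higher in class II macrophages than in both references, by 1.69 and by 3.68 on the log2 scale (edgeR adjusted p = 2.7e-04 and 2.3e-06). Cd9, the other gene called higher than on the Mrc1 side, depended on the Cd207 and Epcam cells, which held 209 of its 429 UMIs in the pooled library and 119 of 220 in replicate 3. Without those 4 cells its log2 fold change was 0.55 (edgeR adjusted p = 0.35).

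Some inflammatory genes were higher in class II macrophages than in either reference. Of 13 tested, 3 were higher than on the Mrc1 side (median log2 fold change 0.97) and 6 higher than in C1q-low class II cells (median 1.63), and 0 were lower in either. Il1rn, the natural antagonist of the IL-1 receptor, stood at 406 and 470 CPM in class II macrophages, against 233 and 231 CPM in Mrc1-side macrophages and 43.2 and 65.2 CPM in C1q-low class II cells. Its log2 fold changes were 0.97 and 3.00 (edgeR adjusted p = 0.0048 and 1.4e-06). Nlrp3, the sensor of an inflammasome that matures IL-1β, stood at 282 and 406 CPM, against 168 and 159 CPM on the Mrc1 side and 145 and 227 CPM in the C1q-low cells, and passed both tests. The class II macrophages were thus the highest of the 3 classes for both genes, without overlap.

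Il1b itself was higher in level than on the Mrc1 side but did not pass the test. It stood at 1843 and 1226 CPM in class II macrophages, 208 and 81.1 CPM in Mrc1-side macrophages and 1547 and 2871 CPM in C1q-low class II cells, a log2 fold change of 3.50 ± 0.79 against the Mrc1 side (edgeR adjusted p = 0.18, DESeq2 adjusted p = 2.7e-04). After thinning to 5000 UMIs, an Il1b UMI was found in 75.9 and 65.0% of class II macrophages, in 24.2 and 17.3% of Mrc1-side macrophages and in 0.813 and 0% of mesenchymal cells, and without thinning these shares were 82.6 and 76.7%, 30 and 24.2%, and 2.83 and 1.67%. Tnf and Cxcl2 did not pass the test against the Mrc1 side and were higher in class II macrophages than in C1q-low class II cells. Cxcl2, a neutrophil attractant, stood at 4116 and 5705 CPM in class II macrophages, 4125 and 3601 CPM in Mrc1-side macrophages and 1064 and 1332 CPM in C1q-low class II cells. Ptgs2, the cyclooxygenase of prostaglandin synthesis, was called higher than on the Mrc1 side at 545 and 297 CPM against 74.1 and 89.7 CPM, a log2 fold change of 2.42. Without the keratin-rich barcode or the 4 Cd207 and Epcam cells the fold change was 2.58 and 2.57, no smaller, while the edgeR adjusted p was 0.085 and 0.16; these cells held 29 of its UMIs, all in 1 cell of replicate 3. Nos2, the nitric oxide synthase of classically activated macrophages, had no UMI in any of the 3 classes.

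Malt1 and Il1r2 were among the genes with the largest differences from the Mrc1 side. Malt1, a protease that passes signals from antigen and lectin receptors to NF-kappaB, stood at 462 and 507 CPM in class II macrophages, against 45.3 and 43.2 CPM in Mrc1-side macrophages and 437 and 502 CPM in C1q-low class II cells. It was higher than on the Mrc1 side by 3.51 ± 0.21 on the log2 scale (edgeR adjusted p = 1.9e-07), and its level in C1q-low class II cells overlapped that of the class II macrophages. Il1r2, a decoy receptor for IL-1, was counted at 80.0 and 118 CPM, against 1.03 and 7.57 CPM on the Mrc1 side and 284 and 551 CPM in the C1q-low cells. Its call against the Mrc1 side was lost without the 4 Cd207 and Epcam cells, which held 60 of 85 UMIs in replicate 3 but 14 of 104 in the pooled library (log2 fold change 4.0, edgeR adjusted p = 0.27).

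Some chemokines were lower in class II macrophages than on the Mrc1 side, and more were higher than in C1q-low class II cells. Of 11 tested outside the rule, 1 was higher and 3 lower against the Mrc1 side (median log2 fold change -0.44), and 6 were higher and 0 lower against the C1q-low cells (median 1.89). Ccl3, an inflammatory chemokine, stood at 276 and 344 CPM in class II macrophages, against 825 and 909 CPM in Mrc1-side macrophages and 16.4 and 29.4 CPM in C1q-low class II cells. Its log2 fold changes were -1.43 and 3.76 (edgeR adjusted p = 2.7e-04 and 9e-07). The monocyte attractants Ccl7 and Ccl12 showed the same order, with Ccl7 at 277 and 611 CPM in class II macrophages, 1959 and 1545 CPM in Mrc1-side macrophages and 40.9 and 35.7 CPM in C1q-low class II cells. Ccl9 was the exception, at 345 and 625 CPM in class II macrophages, 263 and 331 CPM on the Mrc1 side and 200 and 319 CPM in the C1q-low cells, and was called higher against both.

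Complement and phagocytic receptor genes were mixed. Outside the C1q genes, 1 of 12 complement genes was higher and 3 were lower than on the Mrc1 side (median log2 fold change -0.43), and 5 were higher than in C1q-low class II cells (median 0.86). C3, the central component of complement, was highest in class II macrophages, at 192 and 116 CPM, against 87.4 and 50.8 CPM in Mrc1-side macrophages and 70.1 and 31.5 CPM in C1q-low class II cells, and passed both tests. C4b stood at 6.92 and 5.53 CPM against 66.9 and 86.5 CPM on the Mrc1 side. Vsig4, a receptor for C3 fragments, had no UMI in class II macrophages, against 36.0 and 15.1 CPM on the Mrc1 side, at least 15.6-fold and 3.65-fold lower with a floor of 3 counts per library, although only 3 and 2 Mrc1-side macrophages carried its UMIs. Among 20 scavenger, Fc and apoptotic cell receptors, 2 were higher and 6 lower than on the Mrc1 side (median -0.37), and 9 were higher than in the C1q-low cells (median 0.79). The related receptors Axl and Mertk, which both bind Gas6, parted: Axl stood at 109 and 102 CPM in class II macrophages, against 52.5 and 35.7 CPM on the Mrc1 side, while Mertk stood at 33.1 and 24.9 CPM against 126 and 81.1 CPM. The log2 fold changes were 1.33 for Axl and -1.76 for Mertk (edgeR adjusted p = 0.0045 and 6.5e-04).

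Most genes of glycolysis and HIF-1 targets, included because the study concerns HIF-1α, did not pass the test. Over all genes tested, 3.30% were higher and 3.69% lower than on the Mrc1 side. Against C1q-low class II cells these shares were 4.25 and 3.07%. Of 26 tested, 4 were higher and 0 lower than on the Mrc1 side (median log2 fold change 0.17) and DESeq2 called 1, and 1 was higher and 1 lower than in C1q-low class II cells (median -0.02). Ndrg1, a gene induced by hypoxia, stood at 123 and 195 CPM in class II macrophages, against 63.8 and 60.5 CPM in Mrc1-side macrophages and 140 and 170 CPM in C1q-low class II cells, a log2 fold change of 1.37 against the Mrc1 side (edgeR adjusted p = 0.0012). Slc16a3, which exports lactate, stood at 80.0 and 94.0 CPM against 42.2 and 35.7 CPM on the Mrc1 side. Vegfa, the angiogenic factor, passed neither test, at 228 and 144 CPM in class II macrophages, 166 and 188 CPM in Mrc1-side macrophages and 113 and 128 CPM in C1q-low class II cells.

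Growth factors and matrix proteases differed from both references in part. Of 14 growth factors of repair and bone, 1 was higher and 3 lower than on the Mrc1 side (median log2 fold change -0.29), and 7 were higher and 0 lower than in C1q-low class II cells (median 1.15). Tgfbi, a matrix protein induced by TGF-β, stood at 852 and 734 CPM in class II macrophages, against 493 and 322 CPM in Mrc1-side macrophages and 637 and 723 CPM in C1q-low class II cells. Hbegf, a ligand of the EGF receptor, stood at 56.9 and 99.5 CPM, against 132 and 102 CPM on the Mrc1 side and 2.34 and 6.30 CPM in the C1q-low cells, a log2 fold change of 4.2 against the C1q-low cells. This was 3.80 without the keratin-rich barcode and 3.88 without the 4 Cd207 and Epcam cells, where the edgeR adjusted p was 0.076 and 0.12. Of 15 matrix genes, 2 were higher and 2 lower than on the Mrc1 side (median -0.10), and 6 were higher than in the C1q-low cells (median 0.76). Plaur, the urokinase receptor, stood at 346 and 372 CPM in class II macrophages, against 134 and 105 CPM on the Mrc1 side. Mmp12, macrophage elastase, was called higher in both comparisons from 3 and 2 cells. Of 9 osteoclast and RANK pathway genes, Dcstamp and Ocstamp were called higher than on the Mrc1 side; Dcstamp was counted in 3 and 2 class II macrophages, with 29 UMIs in 1 of the Cd207 and Epcam cells, and DESeq2 called 0. Acp5 and Csf1r of this list were higher than in C1q-low class II cells.

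Other cell types and cell quality were measured beside these results. Dissociation stress genes were lower in class II macrophages than on the Mrc1 side for 7 of 18 and higher for 0 (median log2 fold change -0.53). Egr1, an immediate early gene, stood at 416 and 401 CPM in class II macrophages, against 1899 and 1933 CPM in Mrc1-side macrophages and 167 and 122 CPM in C1q-low class II cells. Summed over the list the level was 16085 and 14276.5 CPM in class II macrophages, 24585 and 20699 CPM in Mrc1-side macrophages and 10334 and 11899 CPM in C1q-low class II cells, the same order as the tissue-resident and chemokine lists, and its part in those results and in the inflammatory list was not tested. Ribosomal genes made up a median of 12 and 10.9% of UMIs in class II macrophages, 8.91 and 9.04% in Mrc1-side macrophages and 14.9 and 15.8% in C1q-low class II cells. Summed levels of the T and NK cell, B cell, neutrophil, endothelial and mast cell lists ranged between 4.15 and 92.6 CPM in class II macrophages, where the B cell list reached 745 and 147 CPM in C1q-low class II cells, and the keratinocyte list stood at 8977 and 13.8 CPM, nearly all of it from the keratin-rich barcode. The mesenchyme list outside the rule stood at 150 and 109 CPM in class II macrophages, 125 and 162 CPM in Mrc1-side macrophages and 98.1 and 164 CPM in C1q-low class II cells. At least 3 UMIs of other lineages were found in 24 of 86 and 15 of 43 class II macrophages, and in the fit without such cells 16 of the named genes lost their call against the Mrc1 side and 10 against the C1q-low cells. At least 2 UMIs of core division genes were found in 16 of 86 (18.6%) and 11 of 43 (25.6%) class II macrophages, against 13 of 80 (16.2%) and 5 of 62 (8.06%) Mrc1-side macrophages. Of 19 division genes, H2afz alone was called, higher than on the Mrc1 side and lower than in C1q-low class II cells.

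Class II macrophages varied among themselves in both the monocyte and the tissue-resident list in both libraries. Per 10000 UMIs, the monocyte list had a 10th percentile, median and 90th percentile of 12.8, 43.6 and 105 in the pooled library and 14.2, 45.5 and 89.1 in replicate 3. The tissue-resident list had 7.62, 25.7 and 59.9 in the pooled library and 10.3, 26 and 113 in replicate 3. Across cells the 2 lists ran in opposite directions, with a Spearman rho of -0.37 over 86 cells and -0.61 over 43 cells. The monocyte list also ran against lipid and lysosomal genes (-0.52 and -0.59) and the C1q genes (-0.48 and -0.58). The tissue-resident list ran against glycolysis genes (-0.60 and -0.65) and with Mrc1, Pf4 and Ccl8 of the rule (0.57 and 0.78). Lipid and lysosomal genes ran with the C1q genes (0.57 and 0.70). Inflammatory genes varied widely, with percentiles of 6.99, 63.6 and 250 in the pooled library and 8.40, 59.9 and 351 in replicate 3. They ran with dissociation stress genes (0.56 and 0.29) and showed little relation to the class II genes of the rule (-0.12 and -0.11). These values are descriptions across cells that share a library and a common denominator, and the class II, C1q and Mrc1 genes had chosen the cells.

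**Figure D4:**
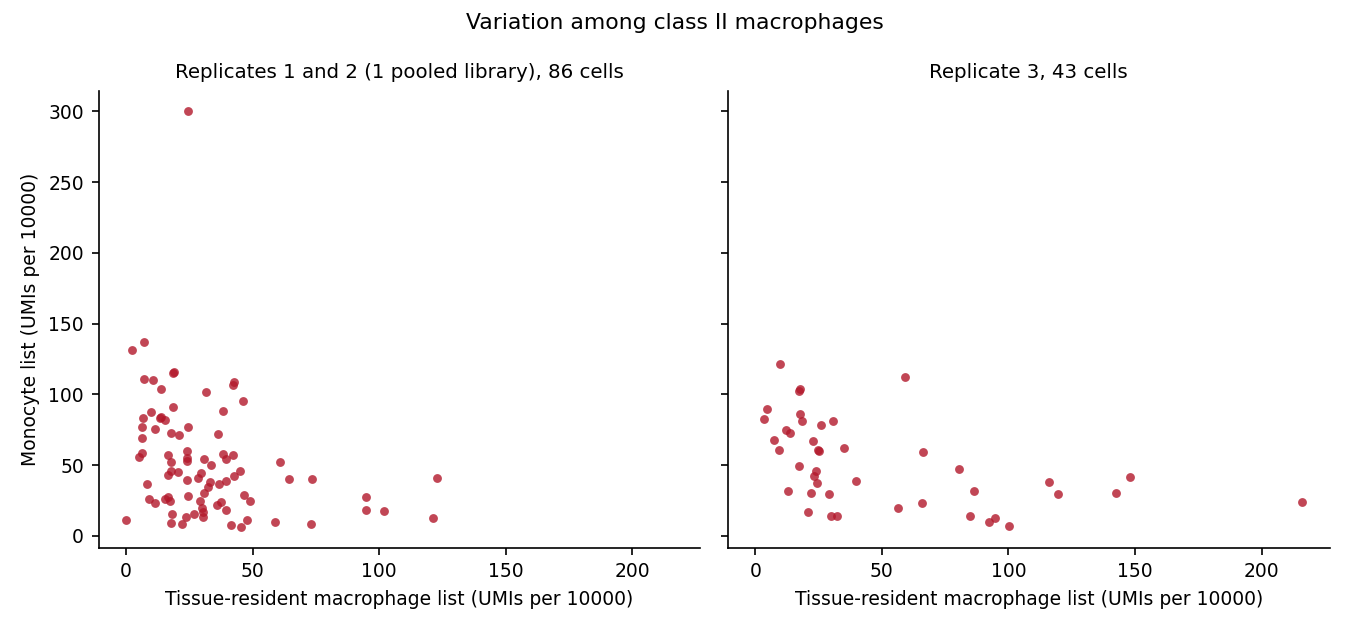
UMIs of the monocyte list (vertical axis) against UMIs of the tissue-resident list (horizontal axis), per 10000 UMIs of each cell, with 1 panel per library and 1 point per class II macrophage. Cells high in one list tended to be low in the other, with a Spearman rho of -0.37 in the pooled library and -0.61 in replicate 3.

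The class II macrophages of the 2 libraries differed in a small set of genes, named after their values were seen and given with no test. Ly6c2, a surface marker of classical monocytes, stood at 277 CPM in the pooled library, in 23 cells, with 58.6% of its UMIs in 1 cell, and at 1.38 CPM in replicate 3, in 1 cell. Plac8, another monocyte gene, stood at 230 and 6.91 CPM, in 28 and 2 cells. C1q-low class II cells carried both genes in both libraries, with Ly6c2 at 252 and 235 CPM and Plac8 at 887 and 601 CPM. The resident macrophage genes ran the other way, with Folr2 at 22.3 and 105 CPM and Cd163 at 5.39 and 92.6 CPM in class II macrophages, and Cd163 UMIs came from 4 cells of each library. None of Ly6c2, Plac8, Folr2 or Cd163 passed either test of the classes.

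In the wild-type sections these cells could not be told apart. Sections A1 and B1 held 3555 and 3195 spots with a median of 454 and 516 UMIs, and a spot can hold several cells. The 3 class II genes of the rule gave 642 and 478 UMIs, found in 14 and 12.2% of spots, the C1q genes 523 and 398 UMIs, and Mrc1, Pf4 and Ccl8 together 811 and 634 UMIs. Only 4 and 1 spots reached 5 C1q UMIs, and no spot had more than 5 class II UMIs in A1 or 6 in B1. Cd74 was seen more widely than the 3 class II genes of the rule together, with 1870 and 1244 UMIs in 32.5 and 26.4% of spots.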

How the data were processed

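Raw UMI counts were used as deposited: the authors had made them with Cell Ranger 5.0.1 for the 2 single-cell libraries (32285 gene rows) and with Space Ranger 2.0.1 for the sections, on the mm10 build. Tissue had been digested with collagenase and dispase. All barcodes together held 31536402 UMIs in the pooled library and 23379476 in replicate 3. Of these 3569 barcodes, 2060 passed the limits on genes, UMIs and mitochondrial share. No column belonged to a sample of another series. Scrublet called 6 and 7 doublets, 0 of them class II macrophages, and none was removed.

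UMI counts were summed per class and library (Python 3.11.15, scanpy 1.11.5) and tested with edgeR 4.0.16 (R 4.3.3) with TMM factors, its default filter on low counts, and all 3 classes in 1 fit. The classes of a library came from the same mice, so library was a block. Genes were called at an adjusted p under 0.05. On simulated counts for the comparison with the Mrc1 side, over 7597 genes, 44 of 100 genes changed by 1 on the log2 scale and 100 of 100 changed by 2 were recovered, with 8 false calls. The changed genes were drawn from those above 50 CPM, and the same spread was set for every gene. The recovery therefore does not hold for genes that vary more, such as Ccr2 and Il1b, or for genes at lower levels. DESeq2 1.42.0 and other filters, scalings and sets of cells were alternatives. Intervals and floors (3 counts per library) cover counting error only. The members, lists and comparisons were chosen with earlier results of these data known. Genes were named by rule: up to 4 called genes per list and comparison, the 10 highest and 10 lowest with at least 50 CPM, the markers, and Hif1a. Genes outside that rule (B2m, Ccr2, Cd163, Cd207, Cd86, Ctss, Cxcl9, Flt3, Folr2, H2-DMa, Ifi30, Il1b, Itgax, Lgmn, Ly6c2, Maf, March1, Mgl2, Nos2, Plac8, Tnf, Trem2, Txnip and Vegfa) were chosen after their values were seen. Transcripts of near-identical copies, such as Bcl2a1a or Hba-a2, are uncertain. Results for some list members are not reported here.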

Additional observations from a re-analysis of the deposited data

How the results depend on the processing

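Against Mrc1-side macrophages the number of genes higher in class II macrophages was 554 with no filter on low counts, 121 with DESeq2 and 446 without the Scrublet doublets. The number lower was 85 with DESeq2. Most of the doublets lay outside the classes tested. The fit without doublets kept all class II macrophages, 79 of 80 and 61 of 62 Mrc1-side macrophages, and 70 of 71 and 35 of 35 C1q-low class II cells. Against C1q-low class II cells 556 were higher with no filter and 153 with DESeq2, and the number lower was 94 with DESeq2, 148 with only the 2 classes in the fit, 373 without dividing cells and 365 without the 4 Cd207 and Epcam cells. Without the keratin-rich barcode the counts were 330 higher and 309 lower against the Mrc1 side and 433 higher and 303 lower against the C1q-low cells. The causes of these shifts were not tested. With no replicate block they were 202 and 241, and 260 and 179. Among the called genes named, direction changed for Epcam (-0.0026 on the log2 scale with no UMI left) and Mfge8 (-0.56) against the Mrc1 side without the Cd207 and Epcam cells, Mfge8 (-0.56) with the rule on cells thinned to 5000 UMIs, Hba-a2 (0.39) without dividing cells, and Cxcl9 in replicate 3 alone (0 against the Mrc1 side and -1.63 against the C1q-low cells).

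Of the named genes called, DESeq2 did not call 23 against the Mrc1 side and 20 against the C1q-low cells, and the fit with no block did not call 19 and 22. The call of Cd74 against the Mrc1 side was lost with no composition factor, with ribosomal UMIs at least 5% and without dividing cells, at edgeR adjusted p of 0.11, 0.14 and 0.087, while its log2 fold change stayed between 3.84 and 4.63 in every fit. Without the Cd207 and Epcam cells Lyz2, Fcgr3 and Itgax lost their calls against the Mrc1 side (log2 fold changes -0.50, -0.55 and 1.90, edgeR adjusted p = 0.058, 0.051 and 0.14), where they were -0.71, -0.77 and 2.17 with them. Gas6, Il1r2, Hbegf and H2-Q7 lost theirs against the C1q-low cells (2.47, -2.65, 3.88 and -0.77, adjusted p = 0.078, 0.21, 0.12 and 0.053), where they were 2.51, -2.07, 4.2 and -0.94. Either library alone gives a value with no test, and for Cd74 these were 3.19 and 4.79. The share of class II macrophages among C1q-high cells stayed between 50.9 and 54.8% and between 38.9 and 42.9%. The planned fit without cells of 5 or more division UMIs was not run because fewer than 20 cells were left in a class. The fits without dividing cells by core genes, without doublets, B cell UMIs, single barcodes or the Cd207 and Epcam cells, and with thinned sums were chosen after seeing the data. With 2 libraries, 1 of them a pool, 1 sum per class and library limits what the depth can show.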

Other observations

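Genes outside the lists stood among the largest differences from the Mrc1 side. Napsa, an aspartic protease of endosomes, stood at 151 and 111 CPM in class II macrophages, against 16.5 and 7.57 CPM in Mrc1-side macrophages and 501 and 504 CPM in C1q-low class II cells. Ass1, an enzyme of arginine synthesis, stood at 90 and 84.3 CPM, against 10.3 and 3.24 CPM on the Mrc1 side, a log2 fold change of 3.73 (edgeR adjusted p = 1.2e-05). Bcl2a1a, an inhibitor of cell death with near-identical copies in the mouse genome, stood at 102 and 101 CPM against 9.26 and 4.32 CPM, and Flrt3, an adhesion receptor, at 80.8 and 115 CPM against 14.4 and 11.9 CPM. In the other direction, Slc40a1, the iron exporter ferroportin, was counted at 1.54 and 0 CPM in class II macrophages, from 2 cells, against 79.2 and 59.4 CPM in Mrc1-side macrophages (edgeR adjusted p = 2e-04, DESeq2 adjusted p = 0.066). Ednrb, an endothelin receptor, stood at 6.15 and 22.1 CPM against 114 and 187 CPM, and Mgst1, a glutathione transferase, at 21.5 and 18 CPM against 94.6 and 147 CPM.

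Dendritic cell genes parted the class II macrophages from the C1q-low class II cells. Of 18 tested, 0 were higher and 10 lower than in the C1q-low cells (median log2 fold change -2.80), and 5 were higher than on the Mrc1 side (median 2.50, and 1.89 with the 6 genes that had no UMI there at their bounds). All Epcam UMIs of the class came from the 4 Cd207 and Epcam cells, and without those cells 4 genes of the list were called and Itgax had a log2 fold change of 1.90 against the Mrc1 side, where it was 2.17 with them (edgeR adjusted p = 0.14). Ifitm1 stood at 79.2 and 26.3 CPM in class II macrophages and 1180 and 1282 CPM in C1q-low class II cells. Klrd1, a lectin receptor, stood at 6.15 and 8.29 CPM against 251 and 208 CPM, and Gpr171 at 10.8 and 16.6 CPM against 147 and 111 CPM. Itgax, which encodes CD11c, did not pass the test between them, at 56.9 and 58.1 CPM against 54.9 and 86.2 CPM in C1q-low class II cells and 8.23 and 19.5 CPM in Mrc1-side macrophages. Dpp4 stood at 11.5 and 23.5 CPM in class II macrophages, at least 3.74-fold and 7.25-fold above Mrc1-side macrophages, which had no UMI of it. Ms4a7, a macrophage membrane protein, stood at 638 and 598 CPM in class II macrophages against 71.3 and 101 CPM in the C1q-low cells, a log2 fold change of 2.82 (edgeR adjusted p = 2.1e-06).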
